A study of Homo sapiens with 18 samples.

Results

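The unsorted DMSO bulk culture of the human melanoma line WM989 was compared with DMSO-treated cells of the same line sorted for low NGFR and EGFR. All 3 DMSO bulk and all 3 DMSO low libraries were taken by their sample names, which gives 6 of the 18 libraries of the study. WM989 is an established melanoma cell line. Every culture of the study received for 7 days either DMSO, the solvent control, or EPZ5676 at 4 uM, an inhibitor of the histone H3 lysine methyltransferase DOT1L. The 6 libraries used for the main comparison all come from DMSO cultures. The low group holds only cells low for both receptors, and the bulk group is described as the bulk population, without saying whether those cells were stained or passed through the sorter. Poly(A) RNA was sequenced and reads were counted per gene. The DMSO high (cells high for NGFR and EGFR), EPZ5676 bulk and EPZ5676 low libraries, 3 in each group, are described as points of reference. Libraries of all groups, EPZ5676 high included, also entered the filter, the scaling and the estimate of spread behind the main tests. The sources used here do not say whether libraries of one group came from separate cultures, so p-values measure only the spread between these libraries.

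NGFR, the low-affinity neurotrophin receptor, and EGFR, the epidermal growth factor receptor, are cell surface proteins. In melanoma, cells with high levels of them are associated with a poorly pigmented, less differentiated state, with matrix and receptor tyrosine kinase genes high and with tolerance of BRAF and MEK inhibitors. In melanocytes and differentiated melanoma cells, the transcription factor MITF drives genes of melanin synthesis and of the melanosome, the organelle that makes and carries pigment. A bulk culture of such a line holds both kinds of cell, while the low sort is meant to leave out the rare cells high for NGFR and EGFR. In a bulk RNA library, a different share of cells of one type and a different amount of RNA per cell cannot be told apart.

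The 6 libraries held 16270501 to 22111994 counts assigned to genes, which limits the precision of every level below. The share of reads outside annotated genes ranged from 13.2% to 15.17%, and that of reads not assignable to a single gene from 7.48% to 7.7%. Levels are given in CPM, gene counts scaled to a common library total with TMM factors. DMSO bulk replicate 1 stood apart from the other bulk libraries. In it, 1485 of 18121 genes (8.19%) lay at least 2-fold above the mean of the low libraries and 564 (3.11%) at least 2-fold below it. For bulk replicates 2 and 3 those numbers were 323 and 203, and 301 and 213. Each low library set against the mean of the other 2 low libraries gave 204 to 313 genes higher and 249 to 308 lower, so bulk replicates 2 and 3 were near the spread of the low libraries by this measure. Results for bulk replicates 2 and 3 are therefore given first, then bulk replicate 1 on its own, then all 3 together.

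Among the genes called higher in bulk replicates 2 and 3 than in the low sort were 8 of 20 collagen genes, 8 of 29 matrix glycoprotein and laminin genes and 9 of 27 matrix protease and crosslinker genes, and among those called lower were 2 of 34 pigmentation genes. Of 18784 genes tested, 216 (1.15%) were called higher in bulk and 19 (0.101%) lower, at an adjusted p under 0.05 by edgeR's quasi-likelihood test. Most of the called changes were small: the median log2 fold change was 0.62 among the genes called higher and -0.287 among those called lower. At least 2-fold changes were seen for 69 of the genes called higher and 1 of those called lower. Over all genes tested the median log2 fold change was -0.0014, with quartiles at -0.104 and 0.12. For all 216 and all 19 of these genes the 2 bulk libraries did not overlap the 3 low libraries, which was also so for 13% (higher) and 12.8% (lower) of all genes tested. The mean of the DMSO high libraries lay above all 6 bulk and low libraries for 188 of the 216 genes and below all 6 for 16 of the 19, given as a description with no test. The share of all genes tested for which this held was not computed. The number of calls depends on single bulk libraries: it fell to 119 higher and 2 lower (EYA4 and LINC00698) without bulk replicate 2, and to 133 higher and 2 lower (ATP6V0D2 and TSPAN10) without bulk replicate 3.

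**Figure D1:**
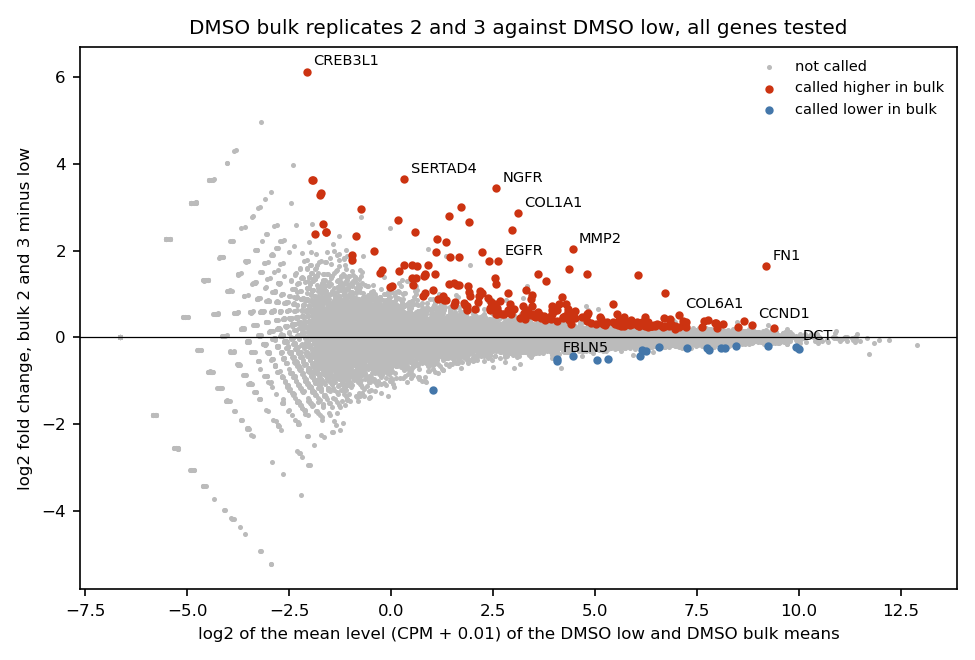
Log2 fold change of DMSO bulk replicates 2 and 3 against the 3 DMSO low libraries for each gene tested, plotted against the log2 of its mean level in CPM. Red points are the 216 genes called higher in bulk and blue points the 19 called lower. The called genes with high levels lie close to 0, and the larger folds belong to genes of low or middle level, with FN1 the exception among the labelled genes.

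NGFR, the receptor used for the sort, was at 0.639, 1.61 and 0.764 CPM in low replicates 1 to 3, at 12.6 and 9.24 CPM in bulk replicates 2 and 3, and at 220 CPM in bulk replicate 1. The DMSO high libraries were at 563, 537 and 617 CPM. All bulk libraries were above all low libraries, and bulk replicate 1 lay between the other bulk libraries and the high libraries. For bulk replicates 2 and 3 the log2 fold change was 3.44 (SE 0.55, adjusted p = 0.00845). Without bulk replicate 2 the call was lost, with a log2 fold change of 3.2. That fit has a single bulk library, so it cannot tell dependence on bulk replicate 2 from a less precise test.

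EGFR was at 2.26, 2.66 and 3.46 CPM in the low libraries, at 9.48 and 9.62 CPM in bulk replicates 2 and 3, and at 28.9 CPM in bulk replicate 1. The high libraries were at 85.6, 73.4 and 68.7 CPM. The log2 fold change for bulk replicates 2 and 3 was 1.76 (SE 0.15, adjusted p = 1.4e-09), and it passed the test with each library left out. That low cells had the lowest level of both receptors is the sort itself, not a finding.

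**Figure D2:**
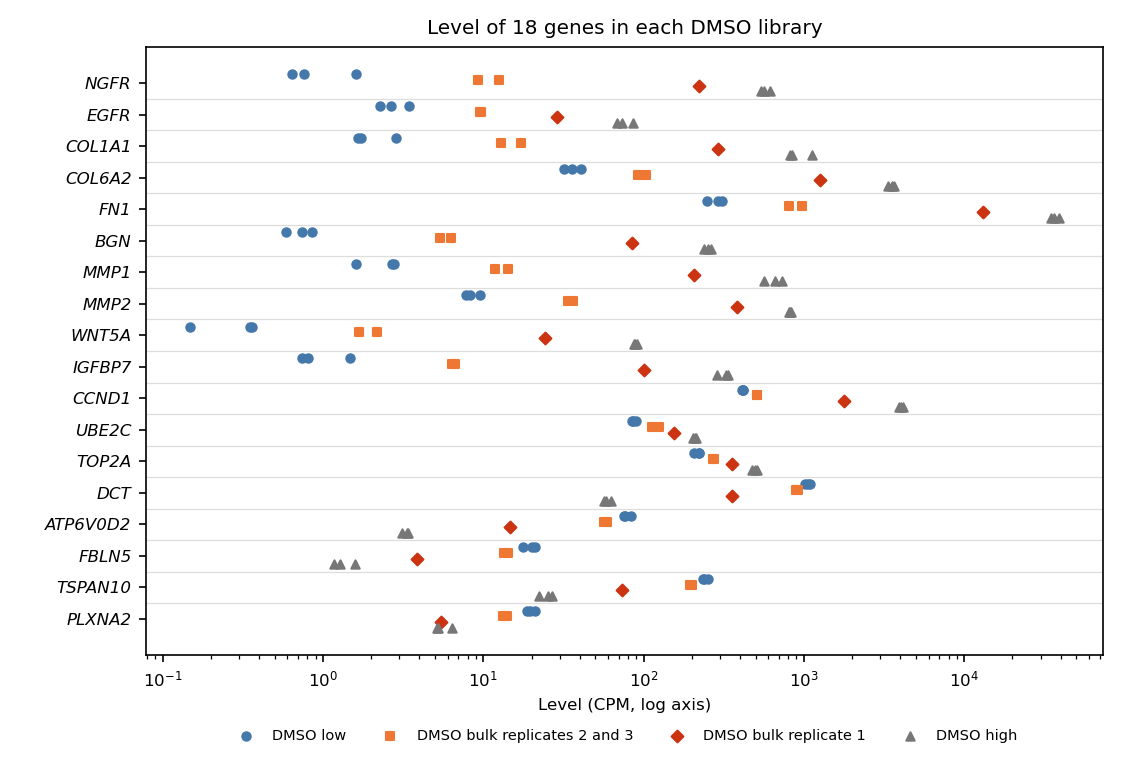
Level of 18 genes (CPM, log axis) in each DMSO library, with one symbol for each group. For NGFR and the matrix genes the low libraries lie at the left, bulk replicates 2 and 3 next, then bulk replicate 1, then the high libraries, while for DCT, FBLN5 and TSPAN10 the order runs the other way.

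Collagens are the structural proteins of the matrix. Of 20 collagen genes tested, 8 were called higher in bulk replicates 2 and 3 and 0 lower, against 1.15% and 0.101% of all genes tested. The list median log2 fold change was 0.558, against -0.0014 over all genes tested. COL1A1, a chain of type I collagen, was at 1.72, 2.86 and 1.66 CPM in the low libraries and at 12.9 and 17.3 CPM in bulk replicates 2 and 3 (log2 fold change 2.87, SE 0.26, adjusted p = 0.000123). Both bulk libraries were far above all low libraries, and bulk replicate 1, at 290 CPM, was higher still. COL6A2, a chain of type VI collagen, was at 35.7, 40.4 and 32 CPM in the low libraries and at 91.9 and 104 CPM in bulk replicates 2 and 3 (log2 1.44, SE 0.09, adjusted p = 5.55e-07). It was at 1260 CPM in bulk replicate 1. COL6A1 rose less, with a log2 fold change of 0.53 (SE 0.05, adjusted p = 9.85e-08). The type I chain COL1A2 (2.19, SE 0.31) and the type V chains COL5A1 (2.34, SE 0.40) and COL5A2 (0.84, SE 0.12) were also called higher, with adjusted p-values of 0.00103, 0.000424 and 3.57e-05. These 6 calls held with each library left out. The remaining calls, COL16A1 and COL18A1, are not described here. Type I collagen chains are also fibroblast markers. Of the other fibroblast markers, PDGFRA, PDGFRB and FAP were called higher too, though each call was lost without bulk replicate 3, and those of PDGFRB and FAP also without bulk replicate 2, low replicate 1 or low replicate 3 (highest adjusted p 0.374, 0.223 and 0.411), while PDPN had 0 counts in the 6 libraries, THY1 had 7 and COL3A1 had 11.

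Of 29 matrix glycoprotein and laminin genes, 8 were called higher and 1 lower, against 1.15% and 0.101% of all genes tested. The list median log2 was 0.36. FN1, fibronectin, was at 290, 310 and 248 CPM in the low libraries and at 804 and 968 CPM in bulk replicates 2 and 3 (log2 1.65, SE 0.13, adjusted p = 2.71e-05). Both were above all low libraries, and bulk replicate 1 was at 13180 CPM. BGN, the small matrix proteoglycan biglycan, was at 0.737, 0.854 and 0.584 CPM in the low libraries and at 5.37 and 6.33 CPM in bulk replicates 2 and 3 (log2 3.02, SE 0.21, adjusted p = 5.79e-08). THBS1, the matricellular protein thrombospondin, was at 9.58, 10.3 and 10.9 CPM against 29 and 32 CPM (log2 1.57, SE 0.17, adjusted p = 0.000539). TNC, tenascin, was at 65.2, 76.5 and 65.2 CPM against 142 and 137 CPM (log2 1.02, SE 0.08, adjusted p = 5.55e-07). HSPG2, the basement membrane proteoglycan perlecan, had a log2 fold change of 0.40 (SE 0.06, adjusted p = 5.68e-05). These calls held with each library left out. SPP1, osteopontin, was also called higher (log2 0.69, adjusted p = 0.0013), but not without bulk replicate 3 (adjusted p = 0.0863). FBLN5, the elastic fibre protein fibulin, was the only one of these genes called lower. It was at 20.9, 20 and 17.7 CPM in the low libraries and at 13.5 and 14.2 CPM in bulk replicates 2 and 3 (log2 -0.49, SE 0.11, adjusted p = 0.0104). Its bulk libraries were below all low libraries, but the call was lost without low replicate 1, bulk replicate 2 or bulk replicate 3 (highest adjusted p 0.225).

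Of 27 matrix protease and crosslinker genes, 9 were called higher and 0 lower, against 1.15% and 0.101% of all genes tested. The list median log2 was 0.234. MMP2, the gelatinase that degrades denatured collagen, was at 7.76, 9.54 and 8.31 CPM in the low libraries and at 36.4 and 33.9 CPM in bulk replicates 2 and 3 (log2 2.04, SE 0.12, adjusted p = 1.86e-07). Bulk replicate 1 was at 382 CPM. MMP1, a collagenase of fibrillar collagen, was at 2.7, 2.76 and 1.62 CPM against 14.3 and 11.9 CPM (log2 2.48, SE 0.41, adjusted p = 0.0108), and its call was lost without bulk replicate 2, bulk replicate 3 or low replicate 3 (highest adjusted p 0.118). SERPINE2, a serine protease inhibitor, was at 329, 371 and 360 CPM against 449 and 463 CPM (log2 0.37, SE 0.05, adjusted p = 1.04e-05). The lysyl oxidase family crosslinkers LOXL2 and LOXL3 had log2 fold changes of 0.61 (SE 0.09, adjusted p = 6.42e-05) and 0.54 (SE 0.08, adjusted p = 0.000164). The calls for MMP2, SERPINE2, LOXL2 and LOXL3 held with each library left out.

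Of 39 receptor tyrosine kinase and ligand genes, 8 were called higher and 0 lower, against 1.15% and 0.101% of all genes tested. The list median log2 was 0.227. EGFR is 1 of the 8 and was used for the sort, so its call is not a finding on this list. The other genes called were the PDGF receptors PDGFRA and PDGFRB, the fibroblast growth factors FGF1 and FGF5, the vascular growth factors VEGFA and VEGFC, and the ephrin receptor EPHA2. PDGFRA was at 0.933, 1 and 0.674 CPM in the low libraries and at 1.58 and 2.39 CPM in bulk replicates 2 and 3 (log2 1.21, SE 0.24, adjusted p = 0.00335). Both bulk libraries were above all low libraries, but the adjusted p was 0.374 without bulk replicate 3. FGF5 was at 0.442, 0.904 and 0.405 CPM against 1.9 and 1.5 CPM (log2 1.54, SE 0.29, adjusted p = 0.00184), and at an adjusted p of 0.0905 without bulk replicate 2. The other genes had log2 fold changes of 0.85 (PDGFRB, adjusted p = 0.0215), 0.64 (FGF1, 0.012), 1.03 (VEGFC, 0.0351), 0.35 (VEGFA, 0.0296) and 0.55 (EPHA2, 0.0194). The calls of PDGFRB and VEGFC were lost without low replicate 1, low replicate 3 or either bulk library (highest adjusted p 0.223 and 0.419). That of VEGFA was lost without any of the 5 libraries (0.335 at the highest), that of FGF1 without low replicate 1, low replicate 3 or bulk replicate 3 (0.399) and that of EPHA2 without bulk replicate 2, low replicate 2 or low replicate 3 (0.746). AXL, a receptor tyrosine kinase of this state in melanoma, was at 0.147, 0.351 and 0.36 CPM in the low libraries and at 1.32 and 2.02 CPM in bulk replicates 2 and 3. Its log2 fold change of 2.52 (SE 0.67) did not pass the test (adjusted p = 0.136).

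Of the 16 genes chosen as markers of drug resistance in melanoma, 6 were called higher and 0 lower (list median log2 0.434), and most of these are named above. Over all genes tested, 1.15% were called higher and 0.101% lower, and this holds as the background for each list here. WNT5A, a ligand of non-canonical Wnt signalling, was at 0.147, 0.351 and 0.36 CPM in the low libraries and at 1.69 and 2.16 CPM in bulk replicates 2 and 3 (log2 2.72, SE 0.35, adjusted p = 1.28e-05), and its call held with each library left out. Among other lists, 3 of 18 genes of the epithelial-mesenchymal transition and undifferentiated state were called higher (list median log2 0.248), CAV1, TCF4 and PRRX1. CAV1, the caveolae protein caveolin, had a log2 fold change of 0.41 (SE 0.06, adjusted p = 7.91e-05) and kept its call with each library left out. The transcription factor TCF4 (log2 1.44, adjusted p = 0.00106) was lost without bulk replicate 3 (adjusted p = 0.121). The homeobox factor PRRX1 (log2 0.27, adjusted p = 0.0312) was lost without low replicate 1, low replicate 3 or either bulk library (highest adjusted p 0.318). CCND1, the G1 cyclin D1, was one of 3 of 22 genes of MAPK output called higher. It was at 412, 418 and 415 CPM in the low libraries, at 507 and 510 CPM in bulk replicates 2 and 3 and at 1790 CPM in bulk replicate 1 (log2 0.29, SE 0.04, adjusted p = 8.53e-05). In the YAP/TEAD list, MYOF, a membrane repair protein, was the 1 gene of 22 called (log2 1.46, SE 0.18, adjusted p = 0.000934). In the TGF-beta list, PMEPA1, a TGF-beta induced inhibitor of SMAD signalling, had a log2 fold change of 1.46 (SE 0.23, adjusted p = 0.000243). The calls of CCND1, MYOF and PMEPA1 held with each library left out.

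Of 61 mitosis genes tested, 10 were called higher in bulk replicates 2 and 3, by small amounts, and 0 lower. Over all genes tested these shares were 1.15% and 0.101%. The list median log2 was 0.179. UBE2C, which helps the anaphase-promoting complex degrade cyclins, was at 86.4, 85.3 and 89.8 CPM in the low libraries and at 125 and 113 CPM in bulk replicates 2 and 3 (log2 0.45, SE 0.06, adjusted p = 1.18e-05). CENPA, the centromere-specific histone, was at 28.2, 30.1 and 29.9 CPM against 40.8 and 40 CPM (log2 0.46, SE 0.07, adjusted p = 0.000207). TOP2A, the topoisomerase that untangles chromosomes, was at 223, 207 and 221 CPM against 273 and 277 CPM (log2 0.34, SE 0.06, adjusted p = 0.000207). Both bulk libraries were above all low libraries for all 3 of these genes, and the calls held with each library left out. None of 47 DNA replication genes was called (0 higher and 0 lower), and their median log2 was 0.009. The mitosis and DNA replication lists were described side by side and the difference between them was not tested. Of 31 sterol and fatty acid synthesis genes, 2 were called higher, against the same 1.15% of all genes tested. They were MSMO1 (log2 0.42, adjusted p = 0.0027) and SQLE (log2 0.26, adjusted p = 0.0136), enzymes of cholesterol synthesis. Both calls were lost without bulk replicate 3, and that of SQLE also without bulk replicate 2 or low replicate 2 (highest adjusted p 0.185 and 0.19).

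Of 34 pigmentation genes, 2 were called lower, DCT and MLPH, and 0 higher, against 0.101% and 1.15% of all genes tested. The list median log2 was -0.061, with 12 of the 34 above 0. DCT, the dopachrome tautomerase of melanin synthesis, was at 1089, 1010 and 1060 CPM in the low libraries and at 922 and 894 CPM in bulk replicates 2 and 3 (log2 -0.21, SE 0.05, adjusted p = 0.0178). Its bulk libraries were below all low libraries, but the call was lost without low replicate 1, low replicate 3 or either bulk library (highest adjusted p 0.24). MLPH, melanophilin, which links melanosomes to the actin motor that carries them, was at 176, 157 and 163 CPM in the low libraries, at 140 and 137 CPM in bulk replicates 2 and 3 and at 143 CPM in bulk replicate 1, while the high libraries were at 207, 221 and 211 CPM. All bulk libraries thus lay below both the low and the high libraries, unlike for DCT. The log2 fold change for bulk replicates 2 and 3 was -0.25 (SE 0.05, adjusted p = 0.00643), and the call was lost without low replicate 1 or either bulk library (highest adjusted p 0.137). PMEL, a melanosome structural protein, was at 7970, 7962 and 8511 CPM against 7040 and 7261 CPM. Its log2 fold change of -0.19 did not pass the test (adjusted p = 0.133). MITF was at 641, 582 and 564 CPM in the low libraries and at 561 and 566 CPM in bulk replicates 2 and 3, with a log2 fold change of -0.08 (SE 0.06, adjusted p = 0.736), and SOX10, the neural crest factor upstream of MITF, had a log2 of 0.11 (SE 0.11, adjusted p = 0.866).

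The other genes called lower were few. ATP6V0D2, a subunit of the vacuolar proton pump, was at 84.1, 75 and 76.3 CPM in the low libraries and at 56.6 and 59.1 CPM in bulk replicates 2 and 3 (log2 -0.44, SE 0.08, adjusted p = 0.0013). TSPAN10, a tetraspanin of the pigment lineage, was at 236, 238 and 254 CPM against 196 and 202 CPM (log2 -0.29, SE 0.06, adjusted p = 0.00319). PLXNA2, a semaphorin receptor, was at 20.9, 18.9 and 19.6 CPM against 13.2 and 14 CPM (log2 -0.54, SE 0.11, adjusted p = 0.00598). For all 3 genes both bulk libraries were below all low libraries. Without bulk replicate 2 the calls were lost for all 3, with adjusted p-values of up to 0.0628 for ATP6V0D2, 0.124 for TSPAN10 and 0.153 for PLXNA2, which was lost without bulk replicate 3 as well. The 1 gene at least 2-fold lower, named here after its value was seen, was IGSF6, an immunoglobulin superfamily membrane protein. It was at 3.09, 2.36 and 2.97 CPM in the low libraries and at 1.21 and 1.22 CPM in bulk replicates 2 and 3 (log2 -1.20, SE 0.29, adjusted p = 0.0232), and its call was lost without low replicate 1, low replicate 3 or either bulk library (highest adjusted p 0.275).

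Among the genes the rule on size picked, several belong to no list. IGFBP7, a secreted binding protein of insulin-like growth factors, was at 0.737, 0.803 and 1.48 CPM in the low libraries and at 6.69 and 6.38 CPM in bulk replicates 2 and 3 (log2 2.67, SE 0.18, adjusted p = 3.67e-08). DPYSL2, a microtubule-binding protein of axon growth, was at 1.92, 1.76 and 2.02 CPM against 6.95 and 7.97 CPM (log2 1.97, SE 0.21, adjusted p = 3.57e-05). MRC2, an endocytic receptor for collagen fragments, was at 1.52, 2.96 and 2.79 CPM against 7.37 and 9.01 CPM (log2 1.76, SE 0.17, adjusted p = 1.84e-06). The bulk libraries were above all low libraries for these 3 genes and the calls held with each library left out. Outside the rule, and chosen after their values were seen, are 3 genes of lower level. SERTAD4 was at 0.0982, 0.251 and 0.18 CPM against 2.79 and 1.83 CPM (log2 3.65, SE 0.39, adjusted p = 1.03e-06), and IGFN1 at 0.737, 0.603 and 0.629 CPM against 5.06 and 4.22 CPM (log2 2.81, SE 0.33, adjusted p = 0.000796). CREB3L1, a membrane-bound transcription factor, had 0 counts in all 3 low libraries and 13 and 5 counts in bulk replicates 2 and 3. Against a floor of 3 counts over the low group it was at least 9.31-fold higher, and the call was lost without bulk replicate 2 (adjusted p = 0.103).

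Smaller counts were found in other lists: 3 of 18 integrin genes, 2 of 24 NF-kB and cytokine genes, 1 of 40 interferon response genes, 1 of 22 p53 target genes, 1 of 19 melanocyte transcription factors, 1 of 18 neural crest and glial genes and 1 of 36 glycolysis and hypoxia genes were called higher, against 1.15% of all genes tested, and 0 of each lower. Each of these calls was lost with at least 1 library left out. Several lists gave no call in bulk replicates 2 and 3. None of 15 AP-1 subunit genes, 27 immediate early genes, 43 oxidative phosphorylation genes or 55 ribosomal protein genes was called in either direction, and neither were the 23 contractile and SRF target genes, the 18 heat shock genes or the 10 DOT1L complex genes. The list medians were 0.005 for AP-1 subunits, 0.025 for immediate early genes, -0.099 for oxidative phosphorylation and 0.014 for ribosomal proteins. In single genes of the AP-1 list, FOS varied from 221 to 354 CPM over the low libraries and was at 286 and 217 CPM in bulk replicates 2 and 3.

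**Figure D3:**
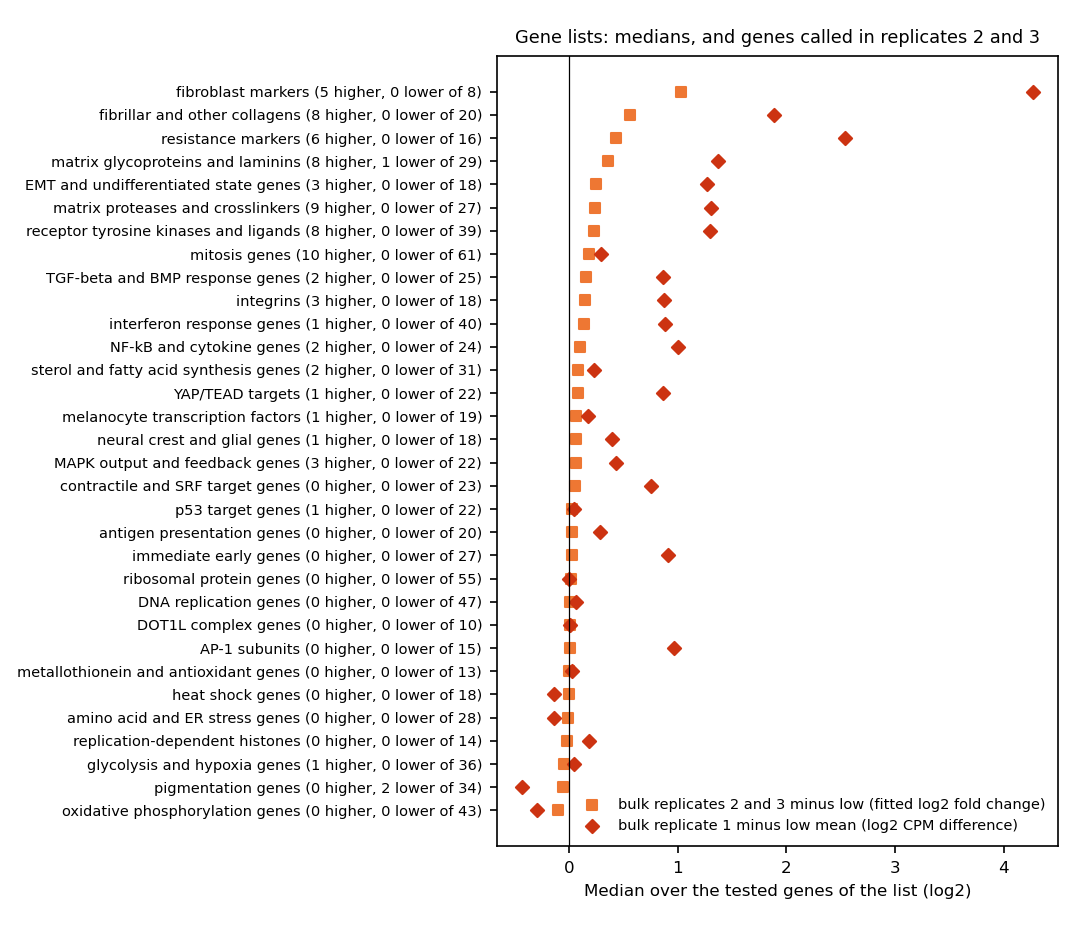
Median over the tested genes of each list with at least 8 of them, for DMSO bulk replicates 2 and 3 against low (squares, fitted log2 fold change) and for bulk replicate 1 against the low mean (diamonds, difference in log2 CPM). The labels give the genes called higher and lower in the first of these and the genes tested. The fibroblast marker, collagen and resistance marker lists lie furthest to the right in both, and the oxidative phosphorylation and pigmentation lists lie furthest to the left in both. The low libraries are shared by both.

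Markers of other cell types were checked, since collagens are made by fibroblasts. Of 8 fibroblast markers tested, 5 were called higher in bulk replicates 2 and 3, against 1.15% of all genes tested. They are COL1A1, COL1A2, PDGFRA, PDGFRB and FAP, and most of these also stand in the collagen and receptor lists. The summed level of all 10 markers of the list, called or not, was 73.7 to 77.4 CPM in the low libraries. This sum was 93.2 and 93.6 CPM in bulk replicates 2 and 3 and 465 CPM in bulk replicate 1. LUM, the matrix proteoglycan lumican, is a large part of the sum in the low libraries and was not called. LUM was at up to 71 CPM in the low libraries, at up to 68.9 CPM in bulk replicates 2 and 3 and at 46.7 CPM in bulk replicate 1. Summed keratinocyte markers were at 27.7 to 31.4 CPM in the low libraries, 32.1 and 34.3 CPM in bulk replicates 2 and 3 and 32.9 CPM in bulk replicate 1, nearly all from KRT10, with KRT5, KRT1, KRT17 and DSG3 at 0 counts. Summed leukocyte markers were at 2.16 to 3.98 CPM in the low libraries and at 2.74 to 3.28 CPM in the bulk libraries, and summed endothelial markers at 29.8 to 36.5 CPM and 28.3 to 33.4 CPM. Most of the endothelial sum was EGFL7, at 27.3, 29.4 and 33 CPM in the low libraries and 20.7 CPM in bulk replicate 1. Of 4 endothelial markers tested, 0 were called in bulk replicates 2 and 3. In bulk replicate 1, 2 of the 4 were at least 2-fold above the low mean, VWF (4.87 CPM against 1.43, 2.06 and 2.38) and KDR (1.83 CPM against 0.933, 0.452 and 0.674). The part of other cell types in the matrix gene results was not tested. The melanocyte lineage genes were read in all 6 libraries, MITF at 396 to 641 CPM, SOX10 at 641 to 813 CPM and PMEL at 2968 to 8511 CPM.

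Bulk replicate 1 alone had matrix, protease and receptor genes far above the low sort and pigmentation genes below it. It is 1 library, so the following folds have no replicate check and no test. NGFR was 220 times its mean in the low libraries, COL1A1 139 times, BGN 116 times and FN1 46.7 times. Of the 20 collagen genes, 14 were at least 2-fold above the low mean and 0 at least 2-fold below it, against 8.19% and 3.11% of all genes compared. The corresponding counts were 19 and 1 of 29 matrix glycoprotein and laminin genes, 13 and 1 of 16 resistance markers and 21 and 1 of the 38 receptor and ligand genes compared here. EGFR, used for the sort, is among those 21. Of the 34 pigmentation genes, 1 was at least 2-fold above the low mean and 9 were at least 2-fold below it. PMEL was at 2968 CPM in this library, against 7962 to 8511 CPM in the low libraries, and DCT was at 358 CPM. AXL was at 39.6 CPM, against 0.147 to 0.36 CPM in the low libraries, and ITGA11, a collagen-binding integrin chain, at 20.3 CPM against 0.0491 to 0.201 CPM. The genes with the largest ratios below the low mean also included PLB1, a phospholipase, at 1.71 CPM against 21.3, 16.6 and 15.2 CPM, and SYT7, a synaptotagmin of lysosome secretion, at 1.28 CPM against 10.5, 10.7 and 9.08 CPM.

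In bulk replicate 1 the signalling, cell cycle and energy lists were as follows. Over all genes compared, 8.19% were at least 2-fold above the low mean and 3.11% at least 2-fold below it. Of 15 AP-1 subunits, 6 were at least 2-fold above the low mean and 0 below, and of 27 immediate early genes 11 and 1. FOS was at 626 CPM in bulk replicate 1, above its 3 low values of 354, 263 and 221 CPM, and JUN, another AP-1 subunit, was at 115 CPM against 29.8, 20.4 and 19.2 CPM. Of the 39 interferon response genes compared here, 19 were at least 2-fold above the low mean and 0 below. Of the 61 mitosis genes 0 were at least 2-fold above or below it, with a list median difference in log2 CPM of 0.29. The oxidative phosphorylation list had a median of -0.294, and 0 of its 43 genes passed 2-fold either way. Sizes in bulk replicate 1 and in bulk replicates 2 and 3 share the low libraries, and the difference between them was not tested.

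To place the bulk libraries between the sorted cells, each level was expressed as a share of the way from the low mean (0%) to the high mean (100%), in CPM. The low libraries also enter this scale, so the shares are a description. Over the 512 genes at least 4-fold higher in the high libraries, the median share was 38.1% in bulk replicate 1 (quartiles 30.5% and 48.5%), 2.49% in bulk replicate 2 and 2.81% in bulk replicate 3. Over the 162 genes at least 4-fold lower in the high libraries, it was 68.1% in bulk replicate 1 (quartiles 58.5% and 77.2%), 10.8% in bulk replicate 2 and 10.9% in bulk replicate 3. NGFR lay at 38.4%, 2.03% and 1.44% in bulk replicates 1 to 3, and EGFR at 35.7%, 9.15% and 9.33%. Among the pigment genes, PMEL lay at 68.1%, 14.6% and 11.6%. Some genes lay outside this pattern: FHDC1 was at 130% in bulk replicate 1, above the high mean, and SOX10 at 23.6%, -11.7% and -14.2%. In bulk replicate 1 the level was within the range of the low and high libraries for 85.5% of the genes compared, and for 81.2% and 82.5% in bulk replicates 2 and 3. Of the genes with at least 10 CPM in bulk replicate 1, 0 were there at least 2-fold above every low and high library. Of those with at least 10 CPM in every low and high library, 0 were at least 2-fold below all of them. Genes of lower level were not counted for this.

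**Figure D4:**
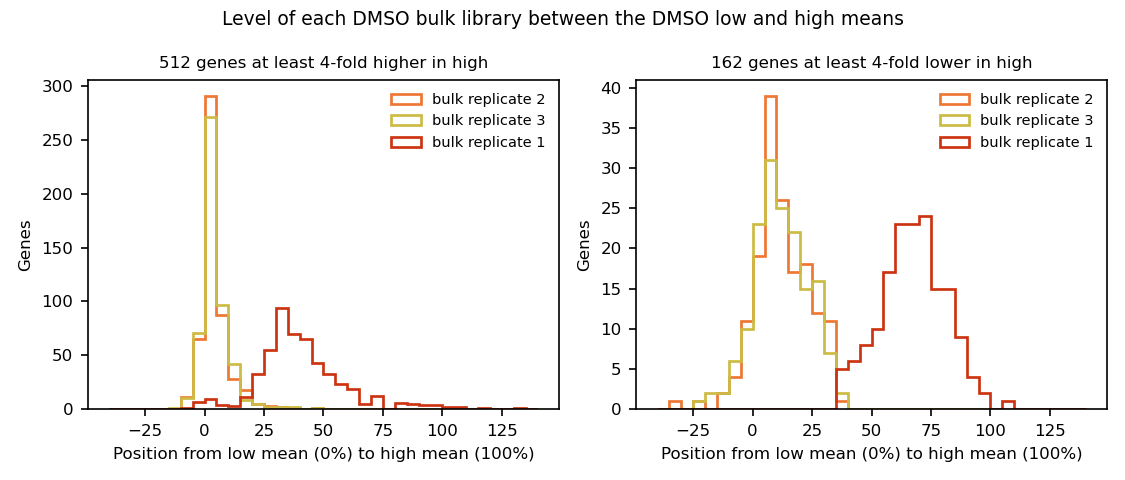
Number of genes at each share of the way from the low mean to the high mean, in CPM, for each DMSO bulk library, for 512 genes at least 4-fold higher (left) and 162 genes at least 4-fold lower (right) in DMSO high. Bulk replicates 2 and 3 lie near 0% and bulk replicate 1 lies between 0% and 100%. Shares beyond the axis are counted in the outermost bins.

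With all 3 bulk libraries against the 3 low libraries, 175 genes (0.966%) were called higher and 22 (0.121%) lower of 18121 tested, and 66 and 1 of them were at least 2-fold (the latter again IGSF6). The calls depended on single libraries to a larger degree than for bulk replicates 2 and 3. Without bulk replicate 2, 1095 genes were called higher and 347 lower, and without bulk replicate 3, 1147 and 418. Without low replicate 1, 2 or 3, the calls were 20 and 0, 36 and 2, and 24 and 0. Among called genes whose bulk mean reached 5 CPM and with no overlap between the groups, the largest folds with all 3 bulk libraries were those of NGFR (log2 6.33, adjusted p = 0.0458), COL1A1 (5.67, adjusted p = 0.0423) and BGN (5.43, adjusted p = 0.0481), and those 3 calls were lost without low replicate 1, 2 or 3 (highest adjusted p 0.167, 0.152 and 0.167). UBE2C (log2 0.58, adjusted p = 0.00164), CENPA (0.52, adjusted p = 0.00164) and TOP2A (0.48, adjusted p = 0.00764) kept their calls with each library left out. No gene was called by edgeR in a fit on the DMSO bulk and low libraries alone (0 genes, 1366 at an unadjusted p under 0.05) or without the libraries with over 16% of reads outside genes (0 genes, 2267); these 3 calls were lost there too. Of 61 mitosis genes, 17 were called higher and 0 lower.

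**Figure D5:**
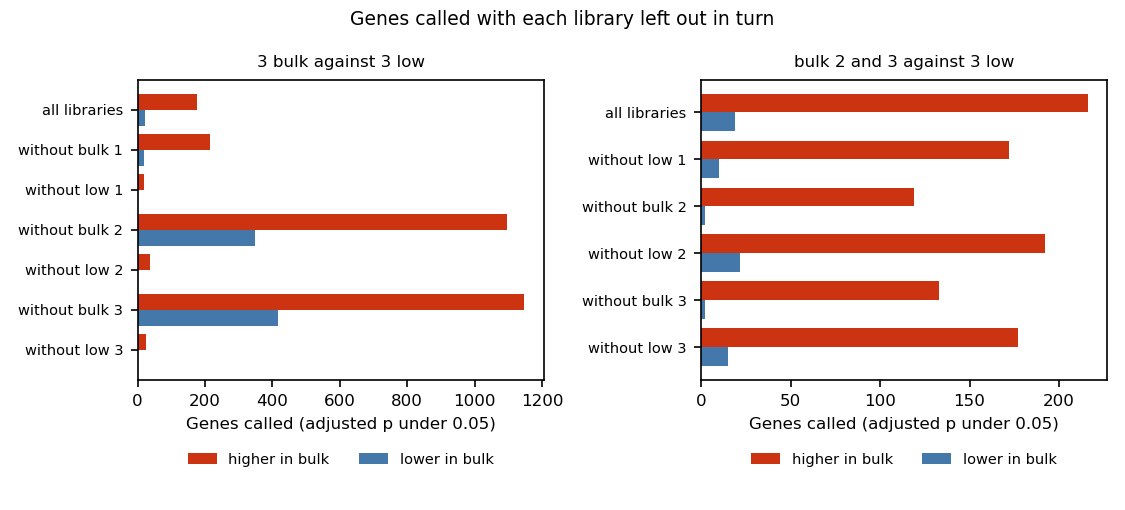
Genes called higher (red) and lower (blue) in DMSO bulk with all libraries and with each library left out, for all 3 bulk libraries (left) and for bulk replicates 2 and 3 (right). On the left, the counts run from 20 without low replicate 1 to 1147 without bulk replicate 3 for genes called higher. On the right, they run from 119 to 216.

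The EPZ5676 cultures give the same contrast under DOT1L inhibition. There, 431 of 18784 genes tested were called higher and 65 lower in bulk than in low. This contrast had 3 bulk libraries and the DMSO one in the same fit had 2, so the numbers of calls cannot be compared directly. NGFR was at 3.64, 6.86 and 1.05 CPM in EPZ5676 low and at 35.7, 29.9 and 30.3 CPM in EPZ5676 bulk (log2 3.01, SE 0.39, adjusted p = 0.000977). Every EPZ5676 bulk library was above every EPZ5676 low library. FN1 was at 411, 476 and 381 CPM against 1902, 1708 and 1532 CPM (log2 2.02, SE 0.12, adjusted p = 1.07e-06). DCT was at 1540, 1500 and 1576 CPM against 1331, 1313 and 1312 CPM (log2 -0.22, SE 0.04, adjusted p = 0.00188). MLPH was at 179, 190 and 184 CPM against 150, 155 and 149 CPM (log2 -0.28, SE 0.05, adjusted p = 0.000181). These libraries varied more in reads outside genes, from 13.4% to 28.65%, and the part of this in the counts was not tested. A test of the difference between the DMSO contrast, with bulk replicates 2 and 3, and the EPZ5676 contrast called 0 genes by edgeR (0%), with 575 of 18784 at an unadjusted p under 0.05 and a smallest adjusted p of 0.3203. DESeq2 also called 0 genes (431 at an unadjusted p under 0.05), and edgeR called 0 without the libraries with over 16% of reads outside genes (385). The log2 differences for NGFR (0.44, SE 0.73, adjusted p = 1) and FN1 (-0.37, SE 0.17, adjusted p = 1) did not pass the test, which does not show that the contrasts were alike.

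The 250 bases before the start of each gene were searched on both strands, using RefSeq promoters (GRCh38.p14). The letters searched were TGANTCA (N is any base) for AP-1, GGAATG for TEAD and TCATGTG for the M-box of MITF family factors. A promoter was found for 157 of the 216 genes called higher and for 15 of the 19 called lower. Among the 157, 6.37% held the AP-1 letters, against 4.16% of 11658 genes tested with a promoter and 6.6% of all 27305 promoters. The TEAD letters stood in 14%, against 9.5% and 11.9%, and the M-box in 0%, against 1.53% and 2.58%. Of the 15 genes called lower, 20% held the AP-1 letters, 13.3% the TEAD letters and 6.67% the M-box. A match describes these letters only and was not tested as a site.

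One promoter with a match is shown for each motif, from genes described above, 100 bases each, 5′ to 3′ along the gene's strand with the match in capitals. THBS1 lies at chr15:39580979-39581078 (+) and its TEAD match starts 46 bases before the start, PDGFRA lies at chr4:54229193-54229292 (+) and its AP-1 match starts 32 bases before it, and TSPAN10, called lower, lies at chr17:81642175-81642274 (+) and its M-box match, read on the other strand, starts 80 bases before it and overlaps an AP-1 match.
THBS1: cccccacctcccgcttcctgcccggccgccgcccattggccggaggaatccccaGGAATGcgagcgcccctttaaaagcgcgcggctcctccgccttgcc
PDGFRA: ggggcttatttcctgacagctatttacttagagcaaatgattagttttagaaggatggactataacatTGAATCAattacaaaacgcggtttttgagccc
TSPAN10: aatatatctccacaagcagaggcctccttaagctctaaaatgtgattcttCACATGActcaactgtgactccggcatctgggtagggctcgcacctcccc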

How the data were processed

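RNA of 18 WM989 libraries was measured. The authors deposited a table of raw counts per Ensembl gene and library. Per the submitters' processing notes, STAR and HTSeq were the tools and hg19 the build; versions, strand setting and annotation release are not given in the sources used here. Poly(A) selection, NEBNext Ultra libraries and paired-end reads on a NextSeq 500 are given by the labels' protocols. Without a stated strand setting, overlapping and antisense genes cannot be told apart.

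Counts were used as deposited, without the 5 summary lines per library (no feature, ambiguous and the like). Of 63677 genes, 52181 were named from a name table and 345 from GENCODE 29, and the 11151 unnamed ones held 0.922% of counts. Mitochondrially encoded genes had 0 counts. The 6 libraries held 16270501 to 22111994 counts. Genes were kept with filterByExpr, scaled by TMM and fitted with edgeR 4.0.16's robust quasi-likelihood test in R 4.3.3, with 1 mean per group of sort and treatment, Benjamini-Hochberg adjustment over all genes tested and a threshold of 0.05. All 6 groups shared one estimate of spread; bulk replicate 1 was left out before filtering for the comparison with 2 bulk libraries. Log2 CPM had a prior count of 2. Alternatives used DESeq2 1.42.0 and limma 3.58.1. Replicate numbers were not taken to pair libraries: the correlations of same-numbered bulk and low deviations were -0.0451, -0.0603 and -0.013. Scripts were tested on simulated data.

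Up to 10 genes per direction and test were named by fold, among called genes with at least 5 CPM and no overlap between groups; for bulk replicate 1, up to 10 with at least 10 CPM; and from each list up to 4 of smallest p. The members and lists were chosen with earlier results of these data known.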

Additional observations from a re-analysis of the deposited data

How the results depend on the processing

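For bulk replicates 2 and 3 against low, all alternatives kept the count of genes called higher within 1.5 times of 216, except limma-voom (134), a fit on the DMSO bulk and low libraries alone (130) and leaving out one library (119 to 192). Genes called lower were 33 without a filter, 41 by DESeq2, 11 on the DMSO bulk and low libraries alone, 12 without the libraries with over 16% reads outside genes, and 2 to 22 with one library left out. For all 3 bulk libraries, genes called higher were 693 without a filter, 711 by DESeq2, 27 by limma-voom, 342 without robust fitting, 74 with the share of reads outside genes as a covariate, and 20 to 1147 with one library left out. Genes called lower were 13 with library size alone, 331 without a filter, 200 by DESeq2, 1 by limma-voom, 3 with that covariate and 0 to 418 with one library left out. On the bulk and low libraries alone edgeR called 0 higher and 0 lower (1366 genes at an unadjusted p under 0.05), and without the libraries high in reads outside genes 0 and 0 (2267). The cause of these changes was not tested. With the replicate number as a block, all 3 bulk libraries gave 109 higher and 7 lower, and bulk replicates 2 and 3 gave 218 and 19; the numbers do not pair the libraries. The difference from the EPZ5676 contrast gave 1 gene higher (SLC17A9) and 3 lower (CEMIP, ERRFI1 and PICART1) without a filter, and 0 to 1 higher with one library left out (SLC17A9, without bulk replicate 3). Adding bulk replicate 1 to it, an alternative chosen after seeing the data, gave 0 calls (571 at an unadjusted p under 0.05). Of 72 named genes called in bulk replicates 2 and 3, 30 kept the call with each library left out and 29 under every alternative; for all 3 bulk libraries these were 5 and 0 of 29. Where 1 of 2 bulk libraries was left out, the lone library was assumed to vary like the other groups. Depth limits genes of few counts, such as CREB3L1.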
